A study of Mus musculus with 4 samples.

Results

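The genes Cdkn1a, Mdm2, Phlda3, Ccng1, Zmat3, Trp53inp1, Trp53, Gdf15, Cdkn2a and Cdkn2b were chosen by symbol from the 32285 features counted, so 10 of 32285 are described. Tumours of mice with pancreatic ductal adenocarcinoma were read by single-cell RNA sequencing on the 10x platform, in 4 libraries with 1 library per group. PH mice received paricalcitol, an agonist of the vitamin D receptor, and hydroxychloroquine, which blocks the lysosome. GPH is the title of the combination group, whose treatment label names G at 60 mg/kg by injection and then breaks off, so that its other drugs are read from the title. G mice received gemcitabine, a nucleoside analogue that stalls DNA synthesis, and control mice received PBS. Every library mixed tumour pieces of 3 animals, which cannot be told apart in the files. Genotype, strain, sex, age and the doses of the other groups are not given in the labels. Without replicates no test was possible, and a difference between libraries cannot be told apart from a difference between animals.

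The p53 protein is a transcription factor that is kept low by the ubiquitin ligase Mdm2 and accumulates after DNA damage. Among its targets, Cdkn1a encodes p21, which stops cyclin-dependent kinases, and Mdm2 closes a feedback loop on p53. The Ink4 genes Cdkn2a and Cdkn2b encode p16 and p15, which block the kinases Cdk4 and Cdk6. Cdkn2a also encodes p19Arf, an inhibitor of Mdm2, from another first exon, and a count per gene does not separate the products. Gemcitabine damages dividing cells, and the question put to the files was whether p53 target RNAs were raised in host cells or in tumour cells.

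RefSeq start sites on GRCm38.p6 were found for 8 of the 10 genes, at 11 sites in all, and the 250 bases before each site were read on the strand of the gene. The windows below belong to the genes on which the results turn. Capitals mark each match to the p53 half-site and each pair of its core, CATGNNNNNNCATG, searched on both strands, where the pair can overlap a half-site. Cdkn1a start 1 lies at chr17:29090729-29090978 on the plus strand, Mdm2 at chr10:117710759-117711008 on the minus strand, Phlda3 at chr1:135765835-135766084 on the plus strand, and the inner start of Cdkn2a at chr4:89282193-89282442 on the minus strand.
Cdkn1a start 1: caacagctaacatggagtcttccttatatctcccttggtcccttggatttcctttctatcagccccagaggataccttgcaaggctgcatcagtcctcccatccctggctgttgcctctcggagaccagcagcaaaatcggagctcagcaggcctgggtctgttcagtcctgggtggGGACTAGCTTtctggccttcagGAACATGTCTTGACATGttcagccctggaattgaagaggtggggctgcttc
Mdm2: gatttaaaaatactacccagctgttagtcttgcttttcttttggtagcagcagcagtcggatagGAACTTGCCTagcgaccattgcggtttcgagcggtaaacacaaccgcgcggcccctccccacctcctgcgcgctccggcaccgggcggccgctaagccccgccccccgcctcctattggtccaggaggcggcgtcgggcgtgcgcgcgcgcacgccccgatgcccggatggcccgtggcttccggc
Phlda3: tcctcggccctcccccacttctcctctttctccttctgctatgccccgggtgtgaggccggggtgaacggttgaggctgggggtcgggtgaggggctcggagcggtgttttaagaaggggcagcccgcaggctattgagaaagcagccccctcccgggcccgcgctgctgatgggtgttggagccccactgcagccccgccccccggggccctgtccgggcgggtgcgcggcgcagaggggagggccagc
Cdkn2a start 2: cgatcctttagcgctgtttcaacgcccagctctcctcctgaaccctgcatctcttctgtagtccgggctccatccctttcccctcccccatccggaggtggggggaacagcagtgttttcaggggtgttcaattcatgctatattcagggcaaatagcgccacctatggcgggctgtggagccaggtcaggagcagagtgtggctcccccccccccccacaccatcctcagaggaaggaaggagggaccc

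The first Cdkn1a window held 2 half-sites, beginning at -73 and -51 from the start site, and 1 core pair. The window of the second Cdkn1a start site, at chr17:29093519-29093768, held neither. Across 32851 windows of the same length, 7.13% held a half-site and 0.490% held the core pair. Mdm2, Ccng1 and Trp53 had 1 half-site each, and no match stood in the windows of Phlda3, Gdf15, Cdkn2a or Cdkn2b. These are matches of letters, and binding was not measured. In the annotation of the mm10 build, all 10 are protein-coding genes. Cdkn2a (chr4:89274471-89294653) and Cdkn2b (chr4:89306299-89311039) are neighbours on the minus strand of chromosome 4, Cdkn1a lies at chr17:29090976-29100727 and Mdm2 at chr10:117688875-117710758.

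The libraries held 143298547 to 190110092 UMIs (counted RNA molecules), and 4411 to 13977 cells were kept in each. A mitochondrial share over 20% was found for 41.0% of GPH barcodes, against 12.7% to 15.6% in the other libraries. Between 17 and 79 barcodes were shared by any pair of libraries, at most 0.594% of the smaller one. Cells were grouped by clustering without the 10 genes. Vim-high cells, called tumour cells by the rule, numbered 10924 in PH, 1931 in GPH, 2106 in G and 8397 in control. Krt19-high cells, named for a keratin of ductal epithelium, numbered 5, 2114, 1303 and 1 in the same libraries, so that they allow only GPH against G. Macrophage or monocyte-like cells numbered 341, 46, 1673 and 241, T cell-like cells 358, 50, 2889 and 358, and fibroblast-like cells 41, 34, 34 and 73. Further immune cells, left unnamed by the rules, numbered 186, 78, 2193 and 377 and enter no host class here. Of these, cluster 13 met 9 macrophage markers and held 929 cells of G. Its 10 leading genes held 0 macrophage markers and 2 dendritic cell markers, Cd209a and Ccr7. Clusters 17 and 18 met 7 T cell markers each and held 193 and 1035 cells of G. No Vim-high cluster met the ductal marker list, and clusters 0, 2 and 8 of them met the count for fibroblast markers. Xist, read from an inactive X chromosome, stood at 1.10 to 8.13 CPM in the Vim-high cells, against 440 to 1112 CPM in the macrophages and T cells of PH, G and control. Summed Y-linked genes reached 0.445 CPM in PH, 13.0 in GPH, 8.81 in G and 0.0913 in control Vim-high cells, so contrasts of GPH or G with control also set cells of unlike Y content side by side.

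Levels are given as CPM, the UMIs of a gene per 1000000 UMIs of its class in 1 library, and intervals are exact 95% intervals that cover counting error only. A gene counted as measured in a comparison at a mean of 20 CPM over its libraries and at least 20 UMIs, and was called higher or lower at 1.5-fold. In a class, less RNA per cell and fewer cells with the RNA cannot be told apart from these sums.

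**Figure D1:**
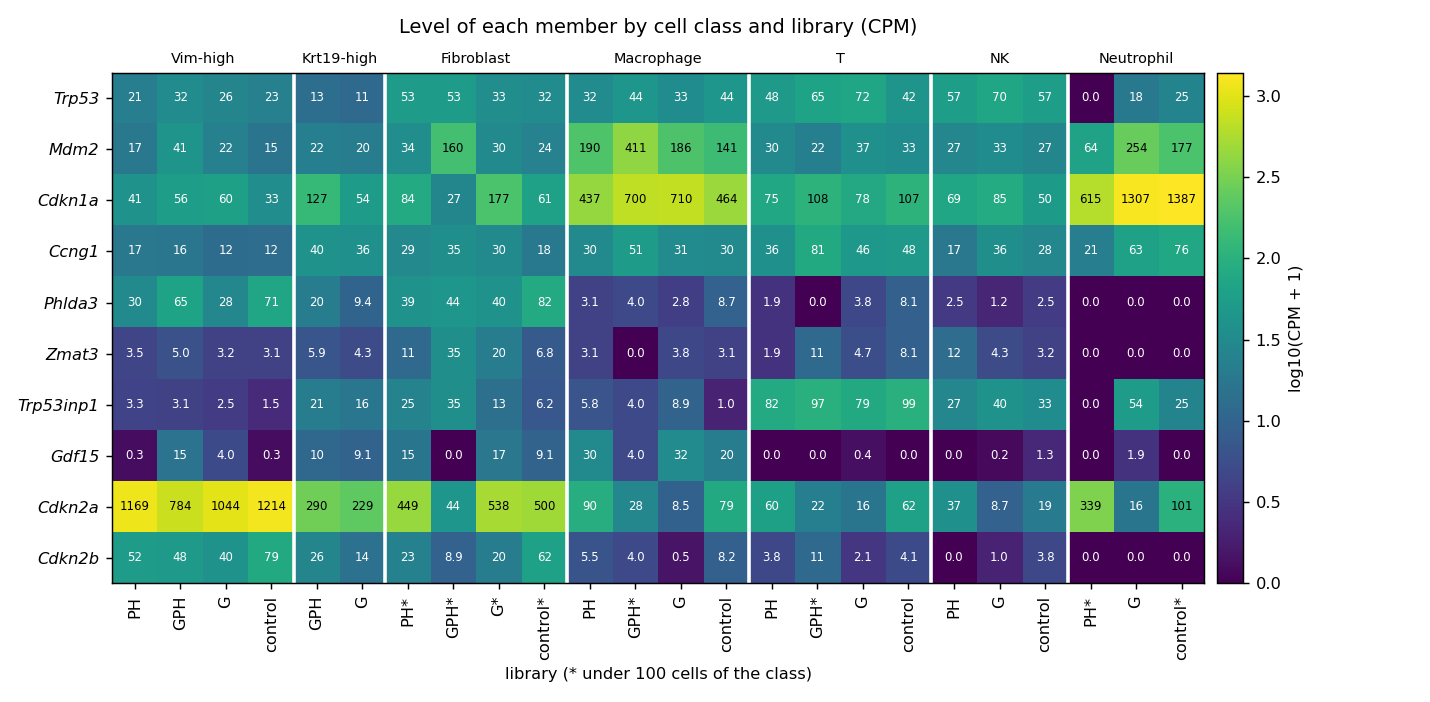
CPM of each gene (down the page) in 7 cell classes, with the libraries of each class side by side; the colour is log10(CPM + 1), and a star marks fewer than 100 cells. Cdkn1a and Mdm2 are brightest in macrophages and neutrophils, and Cdkn2a in Vim-high cells, where it runs from 784 to 1214 CPM.

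Trp53 RNA was found in every class of at least 100 cells and, among those, reached its highest levels in the T and NK cells of G. It had 47.8 CPM in PH T cells, 64.7 in the 50 T cells of GPH, 71.9 in G T cells and 41.7 in control T cells. G T cells were 1.72-fold above control T cells (interval 1.26 to 2.41), past the 1.5-fold limit, and 1.80-fold above in T cell cluster 16 alone (1.30 to 2.55). NK cell-like cells held 56.7 CPM in PH, 69.7 in G and 57.5 in control, and the ratio of G to control was 1.21 (0.961 to 1.55). In Vim-high cells the level was 21.4 CPM in PH, 31.9 in GPH, 26.1 in G and 22.6 in control. These 4 levels stayed within 1.5-fold of each other, and GPH was the highest at 1.41 times control (1.31 to 1.52). Macrophages had 31.7 CPM in PH, 43.5 in the 46 cells of GPH, 32.6 in G and 44.1 in control. Krt19-high cells had the least Trp53, with 12.6 CPM in GPH and 10.8 in G.

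Mdm2, the ligase that removes p53 and is itself a p53 target, was highest in myeloid cells. Macrophages held 190 CPM in PH, 411 in the 46 cells of GPH, 186 in G and 141 in control. The ratio to control was 1.35 in PH (1.17 to 1.57) and 1.32 in G (1.16 to 1.50), both under the limit. Vim-high cells held 17.2 CPM in PH, 41.1 in GPH, 22.5 in G and 15.1 in control. GPH stood 2.72-fold above control (2.53 to 2.92) and 1.83-fold above G (1.66 to 2.01). G was at 1.49 times control (1.36 to 1.63), with a mean under 20 CPM, and passed 1.5-fold in 1 of 6 clusters, cluster 2 (1.95, interval 1.66 to 2.28). Against control, GPH was also higher in each of the 3 Vim-high clusters with at least 100 cells in both libraries, by 1.56-fold, 2.26-fold and 1.75-fold. Against G, the ratio was only 1.14 and 1.16 within the 2 clusters that allowed it. Cells of a cluster can still differ in makeup between libraries. At Leiden resolution 2.0, a Vim-high cluster led by Rarres2 held 780 cells of GPH, 305 of G, 58 of PH and 127 of control. Another, led by Acta2 and Mfap4, held 153, 121, 96 and 1153 in the same order. Both met the fibroblast marker count, as did cluster 2. How cluster 2 divides between them was not looked at, so its ratios for any gene may carry such a difference. In cluster 8 of the main clustering, Mdm2 was at 90.04 CPM in GPH and 51.4 in control. This cluster held 21.5% of the GPH Vim-high cells, against 1.23% in G and 4.60% in control. It was led by Neat1 and had a median depth of 4015 UMIs, 0.417 times the median of its libraries. The part of cluster 8 in the class ratio was not tested. In Krt19-high cells Mdm2 was alike in both libraries, with 21.6 CPM in GPH and 19.7 in G (ratio 1.10, interval 1.01 to 1.19).

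Cdkn1a, the p21 gene, had 40.5 CPM in PH, 55.7 in GPH, 60.3 in G and 33.3 in control Vim-high cells. G stood 1.81-fold above control (1.71 to 1.92), GPH 1.68-fold (1.58 to 1.77) and PH 1.22-fold (1.17 to 1.27). Within clusters, G was above control in 5 of 6 and past 1.5-fold in 4. The largest ratios were 2.08 in mitotic cluster 7 (1.88 to 2.29) and 1.92 in cluster 2 (1.73 to 2.12), while cluster 4 was at 0.803 (0.502 to 1.25). The GPH difference was smaller within clusters. Its ratio to control was 0.823 in cluster 0, 1.29 in cluster 2 and 0.951 in cluster 8, none of them past the limit, and cluster 2 held 52.6% of GPH, 4.75% of PH, 26.3% of G and 23.1% of control Vim-high cells. Against G, Cdkn1a in GPH was lower within both clusters that allowed it, at ratios of 0.671 in cluster 2 and 0.615 in cluster 0. On the opposite strand, the annotation places another gene model over part of Cdkn1a, whose reads could be told apart only if strand was used in counting.

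**Figure D2:**
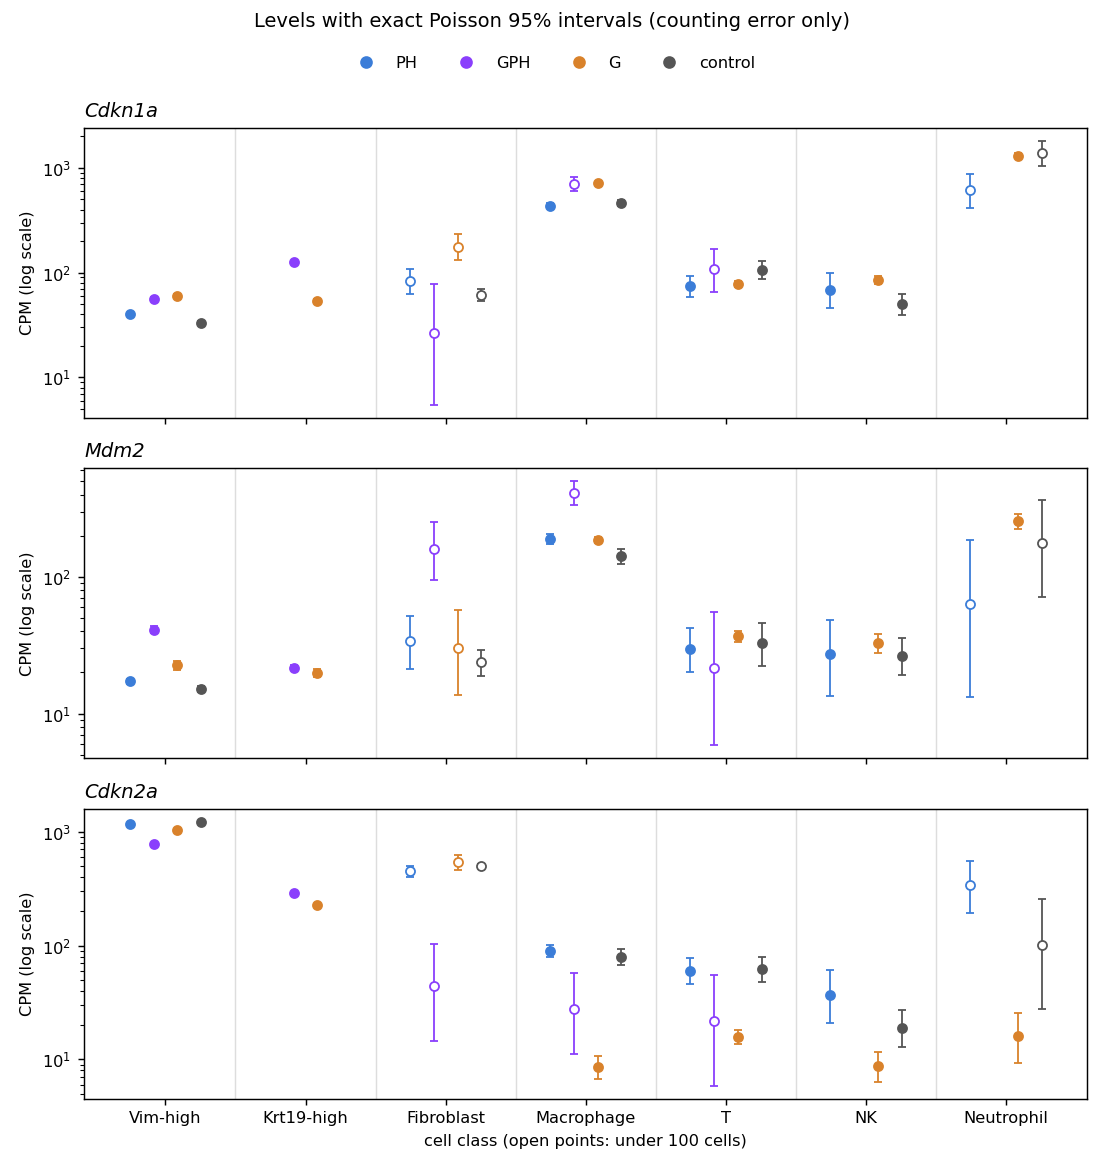
CPM on a log scale of Cdkn1a, Mdm2 and Cdkn2a by cell class, with 1 point per library and exact Poisson 95% intervals; open points rest on fewer than 100 cells. Cdkn1a runs from 33.3 to 60.3 CPM in Vim-high cells and from 437 to 710 CPM in macrophages, while Cdkn2a runs from 784 to 1214 CPM in Vim-high cells and from 8.55 to 90.1 CPM in macrophages.

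Macrophages carried far more Cdkn1a than tumour cells of the same library. The level was 437 CPM in PH, 700 in the 46 cells of GPH, 710 in G and 464 in control. G macrophages were 1.53-fold above those of control (1.43 to 1.64). This call depends on the processing, since the log2 ratio was 0.61 as given, 0.24 with each cell at equal weight and 1.72 with no doublets removed. Sparc RNA stood in macrophages at 1.22% of its Vim-high level in G and 7.07% in control. The part of RNA from tumour cells in the macrophage ratio was not tested. PH macrophages were at 0.942 times control (0.864 to 1.03), and the log2 ratio of Mdm2 in G macrophages ran from -0.01 with cells at equal weight to 1.50 with no doublets removed. Most macrophages of G and most of PH and control fell into different clusters at Leiden resolution 2.0. Cluster 19, led by Ly6i and Chil3, held 1370 of the macrophages of G, 25 of PH and 91 of control, and cluster 25, led by Arg1 and Ccl12, held 258, 315 and 150. The Cdkn1a ratio of G to control was 1.53 within cluster 19 (1.33 to 1.77) and 1.54 within cluster 25 (1.41 to 1.69). In the G library, Vim-high cells had 11.8-fold less Cdkn1a than macrophages (11.2 to 12.4) and Krt19-high cells 13.1-fold less (12.5 to 13.8). Neutrophil-like cells held 615 CPM in the 23 cells of PH, 1307 in the 835 cells of G and 1387 in the 30 cells of control, with a median of 983 UMIs per cell in G. Macrophage markers in G Vim-high cells stood at 0.308% of their level in G macrophages. At that percentage, macrophage RNA would carry 2.19 CPM of Cdkn1a, against the 60.3 CPM measured there. T cell and neutrophil markers gave 0.735 and 0.307 CPM by the same reckoning. Vim-high clusters were chosen for low Ptprc, and the part of host RNA in their Cdkn1a was not tested.

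In lymphocytes the direction was mixed. T cells had 74.5 CPM of Cdkn1a in PH, 108 in the 50 cells of GPH, 78.2 in G and 107 in control. G T cells were thus 1.37-fold below control T cells (1.11 to 1.67), which is inside the limit, and the log2 ratio of -0.45 became 0.06 when cells were classed by their own markers. Within T cell cluster 16 alone the ratio of G to control was 0.685 (0.550 to 0.860). NK cells held 69.0 CPM in PH, 85.1 in G and 49.9 in control, with G 1.71-fold above control (1.34 to 2.20). With each cell thinned to 2000 UMIs, a Cdkn1a UMI was seen in 8.31% of G and 5.87% of control Vim-high cells, and in 13.0% of G and 16.9% of control T cells. The thinning left out 133 and 283 Vim-high cells and 465 and 133 T cells. Unthinned, these shares were 31.3% and 23.9% in Vim-high cells and 22.6% and 17.9% in T cells, so the order in T cells turned with depth.

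Krt19-high cells of GPH had 127 CPM of Cdkn1a, against 54.0 CPM in those of G, a ratio of 2.34 (2.24 to 2.45). Of the immediate early genes, which cells also switch on during dissociation, 11 of 16 measured were at least 1.5-fold higher in the same comparison and 1 was lower (median log2 ratio 0.89). Jun, a subunit of the transcription factor AP-1, was at 638 CPM in GPH and 186 in G, and Dusp1, a phosphatase of MAP kinases, at 452 and 159. Of 30 other p53 targets 8 were measured, of which 2 were higher, 1 was lower and 5 were between (median 0.28, beside 0.23 over all genes measured). Plk3 and Btg2 were at 148 and 274 CPM in GPH, against 56.4 and 110 in G, and Rps27l was at 354 in GPH and 571 in G. The part of dissociation in the Cdkn1a ratio was not tested.

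Ccng1, a p53 target that encodes cyclin G1, varied more between classes than between libraries. Vim-high cells had 17.2 CPM in PH, 15.9 in GPH, 11.8 in G and 12.4 in control, all under the limit. There PH lay above control in 7 of 7 clusters and past 1.5-fold in 3, at log2 ratios of 0.16 to 1.12. Krt19-high cells had 40.0 CPM in GPH and 36.5 in G (ratio 1.10, 1.03 to 1.16), T cells 36.3 in PH, 80.8 in the 50 cells of GPH, 45.9 in G and 47.8 in control. Macrophages of PH, G and control held 30.4, 31.3 and 30.2 CPM. None of its measured class ratios to control in macrophages or T cells of at least 100 cells passed 1.5-fold. The macrophage clusters of Leiden resolution 2.0 differed, however. G was at 1.93 times control in cluster 25 (1.35 to 2.79) and 0.632 times in cluster 19 (0.376 to 1.14).

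Phlda3, a p53 target that restrains Akt at the membrane, split the libraries in pairs. Vim-high cells had 29.9 CPM in PH, 64.8 in GPH, 27.6 in G and 70.6 in control. PH was 2.36-fold below control (2.27 to 2.45) and G 2.55-fold below (2.37 to 2.75), while GPH was 2.34-fold above G (2.16 to 2.55) and at 0.918 times control. PH was at least 1.5-fold lower in 7 of 7 clusters and G in 6 of 6. In Vim-high cells 63 of 4479 genes were at least 1.5-fold higher in both GPH and control than in both PH and G, and 9 were lower. Phlda3 was the only one of the 10 genes among them, and the other pairings of the libraries gave 4 and 37, and 3 and 20, genes. A batch is not named in the labels, and its part in this split was not tested. In Krt19-high cells, Phlda3 was under the limit for a call, at 19.6 CPM in GPH and 9.40 in G.

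**Figure D3:**
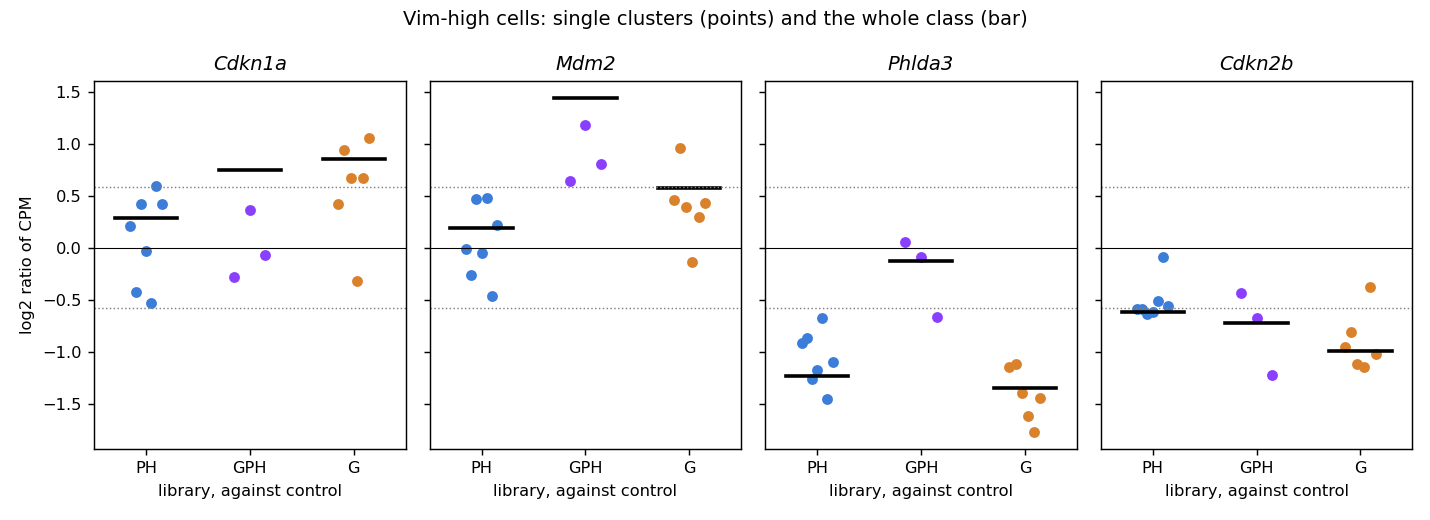
Log2 ratio to control of Cdkn1a, Mdm2, Phlda3 and Cdkn2b in Vim-high cells of PH, GPH and G; points are single clusters of at least 100 cells in both libraries, the bar is the whole class, and dotted lines mark 1.5-fold. All Phlda3 points of PH and G lie between -1.77 and -0.68, and the Cdkn1a bar of GPH at 0.74 lies above its 3 clusters, which run from -0.28 to 0.36.

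Zmat3, which encodes an RNA-binding zinc finger protein, was at 3.10 to 4.98 CPM in Vim-high cells of the 4 libraries and at most 12.3 CPM in any class of at least 100 cells, so it did not reach the limit in those classes. Trp53inp1, a p53 target tied to autophagy and cell death, varied widely between classes. T cells had 82.2 CPM in PH, 97.0 in the 50 cells of GPH, 79.4 in G and 98.7 in control, with G at 0.805 times control (0.653 to 1.001). Cluster 20, led by Foxp3, held 1193 of the 2889 T cells of G and 36 of the 358 of control, so the makeup of the class differed. Within cluster 16, which held the rest, Trp53inp1 was at 57.1 CPM in G and 96.3 in control, a ratio of 0.593 (0.471 to 0.754) and so past the limit. NK cells held 27.1 CPM in PH, 40.5 in G and 32.8 in control. In G, neutrophil-like cells had 54.2 CPM and the 189 plasma cells 51.9. The few Xist-positive epithelial cells, 43 of GPH and 22 of G, had 155 and 244 CPM. Krt19-high cells held 20.7 CPM in GPH and 16.2 in G, and Vim-high cells 3.26 in PH, 3.09 in GPH, 2.54 in G and 1.45 in control. Macrophages held 5.80 CPM in PH, 3.96 in the 46 cells of GPH, 8.89 in G and 1.03 in control. These levels rest on 17, 1, 78 and 2 UMIs and were under the limit for a call. The log2 ratio of G to control was 3.12 in macrophages (1.22 to 6.19) and 0.81 in Vim-high cells (0.39 to 1.21). That macrophage ratio rests on 2 control UMIs, 1 in each of clusters 19 and 25 of Leiden resolution 2.0. G had 33 and 41 UMIs in these clusters. The difference between macrophages and Vim-high cells was not tested.

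Gdf15, a secreted stress factor raised by p53 and by the integrated stress response, was rare in Vim-high cells and sat in few of them. It had 37 UMIs in PH, 447 in GPH, 113 in G and 31 in control, or 0.284, 14.5, 4.05 and 0.257 CPM. All 4 levels were under the limit for a call. A Gdf15 UMI was found in 3.73% of GPH Vim-high cells (2.93 to 4.67) and 2.28% of those of G (1.69 to 3.01), against 0.302% in PH (0.208 to 0.424) and 0.238% in control (0.146 to 0.368). Cluster 2 held 410 of the 447 UMIs of GPH and 75 of the 113 of G, in 61 of 1015 and 26 of 554 cells. Thinned to 2000 UMIs per cell, the shares of Vim-high cells were 0.0751% in PH, 1.21% in GPH, 0.558% in G and 0.0370% in control. In cluster 2, PH had 1 such cell of 519 and control 3 of 1937. The 10 richest cells of cluster 2 held 53.7% of its Gdf15 UMIs in GPH, with up to 36 in a cell.

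**Figure D4:**
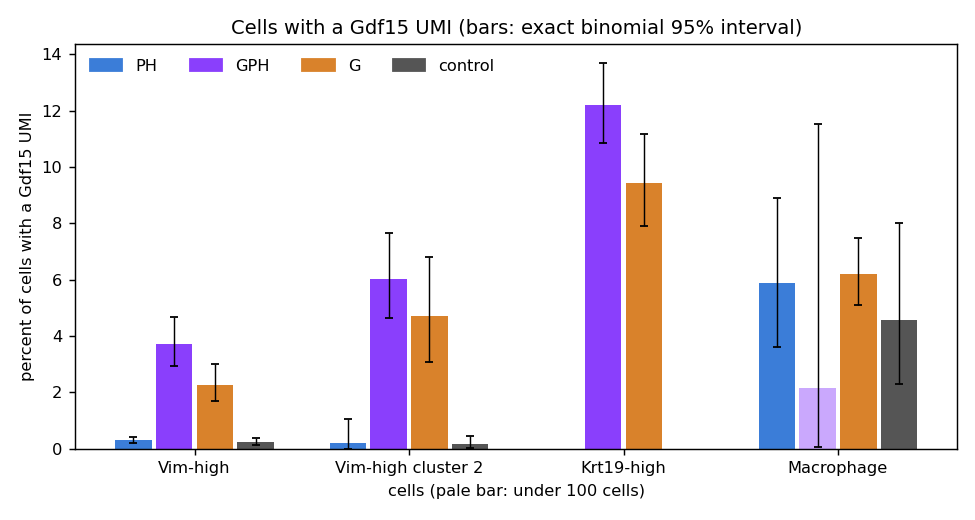
Percent of cells with at least 1 Gdf15 UMI, with exact binomial 95% intervals, in all Vim-high cells, in Vim-high cluster 2, in Krt19-high cells (GPH and G only) and in macrophages; the pale bar rests on 46 cells. GPH and G lie above PH and control in Vim-high cells, while macrophages of PH, G and control lie between 4.56% and 6.22%.

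Krt19-high cells had 10.3 CPM of Gdf15 in GPH and 9.07 in G, with a UMI in 12.2% and 9.44% of cells of median depths 42234 and 29463 UMIs. Thinned, these shares were 1.35% in GPH and 2.11% in G, so their order turned with depth. Macrophages had 29.7 CPM in PH, 31.8 in G and 19.99 in control, and G was 1.59-fold above control (1.14 to 2.29), a call lost at a log2 ratio of 0.37 when cells were classed by their own markers. Cluster 25 of resolution 2.0 held 242 of the Gdf15 UMIs of G macrophages and all 39 of control, and G was 4.11-fold above control within it (2.92 to 5.93). The 10 richest macrophages held 86.2% of the UMIs in PH, 32.3% in G and 97.4% in control, so that the control level rests on a handful of cells. T cells of G held 5 UMIs in all, or 0.355 CPM. T cells of PH and control held 0 of 1046311 and 0 of 982506 UMIs, which allows up to 2.87 and 3.05 CPM.

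Vim-high cells had 1169 CPM of Cdkn2a in PH, 784 in GPH, 1044 in G and 1214 in control, and Krt19-high cells 290 in GPH and 229 in G. GPH was 1.55-fold below control in Vim-high cells (1.53 to 1.57), and the ratio passed the limit in 1 of 3 clusters, with log2 values from -1.15 to -0.51. PH and G stayed within 1.5-fold of control there, at 0.963 and 0.860 times its level. With cells thinned to 2000 UMIs, a Cdkn2a UMI was found in 87.9% of Vim-high cells of PH, 69.7% of GPH, 84.1% of G and 88.3% of control, and unthinned in 98.0%, 87.8%, 94.5% and 96.5%. The thinned shares in T cells, set beside them as a class with little of this RNA, were 5.85% in PH, 2.64% in G and 7.56% in control, and unthinned 8.94%, 5.88% and 10.9%.

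Cdkn2a UMIs were also found in host cells. Macrophages had 90.1 CPM in PH, 27.7 in the 46 cells of GPH, 8.55 in G and 78.9 in control, and T cells 60.2, 21.6, 15.7 and 62.1 in the same order. G was thus 9.23-fold below control in macrophages (6.96 to 12.3) and 3.94-fold below in T cells (2.92 to 5.26). The T cell levels equal 5.15% of the Vim-high level in PH, 1.51% in G and 5.11% in control, while Vim-high cells made up 78.2%, 16.9% and 83.4% of the kept cells. Sparc, a matrix protein gene, stood in T cells at 6.14% of its Vim-high level in PH, 0.387% in G and 4.75% in control. Cdkn2b stood there at 7.38%, 5.32% and 5.13% in the same order, and Phlda3 at 6.39%, 13.9% and 11.5%. These percentages rest on only 4, 30 and 4 UMIs of Cdkn2b and 2, 54 and 8 UMIs of Phlda3 in the T cells. The part of free RNA in the host levels was not tested.

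Cdkn2b, the neighbour that encodes p15, was lower in Vim-high cells of all drug groups. The level was 51.8 CPM in PH, 48.0 in GPH, 40.0 in G and 79.4 in control. G was 1.99-fold below control (1.87 to 2.11), GPH 1.65-fold (1.57 to 1.75) and PH 1.53-fold (1.49 to 1.58). At the limit, G was lower in 5 of 6 clusters, GPH in 2 of 3 and PH in 4 of 7, and no cluster was above control. The 3 ratios share 1 control library, which alone could set them all. Krt19-high cells had 25.7 CPM in GPH and 13.9 in G, just under the limit for a call. Macrophages and T cells held at most 8.20 CPM where at least 100 cells were present.

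In the tumour classes, 4 to 6 of the 10 genes were measured per comparison. In Vim-high cells of PH, 5 of the 10 genes were measured, with 0 higher and 2 lower, Phlda3 and Cdkn2b, and of all 4300 genes measured there 5.28% were higher and 7.37% lower. G against control gave 1 higher, Cdkn1a, and 2 lower, Phlda3 and Cdkn2b, of 5, beside 4.01% and 5.56% of 4242 genes. GPH against control gave 2 higher, Cdkn1a and Mdm2, and 2 lower, Cdkn2a and Cdkn2b, of 6, beside 26.4% and 10.7% of 4682 genes. GPH against G gave 2 higher, Mdm2 and Phlda3, and 0 lower of 6, beside 28% and 7.79% of 4633 genes. In Krt19-high cells 1 of 4, Cdkn1a, was higher in GPH than in G and 0 were lower, beside 17.4% and 3.21% of 4524 genes. The median log2 ratio of the measured genes was -0.08 in PH, 0.19 in GPH and -0.22 in G Vim-high cells against control, beside -0.01, 0.18 and -0.05 over all measured genes.

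Calls in the host classes were counted in the same way. In macrophages of PH, 0 of 6 measured genes were called in either direction, beside 12.2% higher and 11.4% lower of 4543 genes. Macrophages of G had 2 higher, Cdkn1a and Gdf15, and 1 lower, Cdkn2a, of 6, beside 15.8% and 18.5% of 4551 genes. T cells of PH had 0 called of 6, beside 7.25% and 13.0% of 4552 genes. T cells of G had 1 higher, Trp53, and 1 lower, Cdkn2a, of 6, beside 8.98% and 15.7% of 4541 genes. NK cells of PH had 1 higher, Cdkn2a, and 1 lower, Ccng1, of 6, beside 14.5% and 17.9% of 4132 genes. Both intervals included no difference. The log2 ratio was 0.96 for Cdkn2a (-0.04 to 1.90), from 15 UMIs in PH and 30 in control. For Ccng1 it was -0.69 (-2.08 to 0.47), from 7 and 44 UMIs. NK cells of G had 1 higher of 5, Cdkn1a, and 0 lower, beside 9.85% and 11.3% of 4194 genes. With 4 to 6 genes measured per comparison in tumour and host classes, 1 call weighs heavily on a share, and no share was tested against the background.

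**Figure D5:**
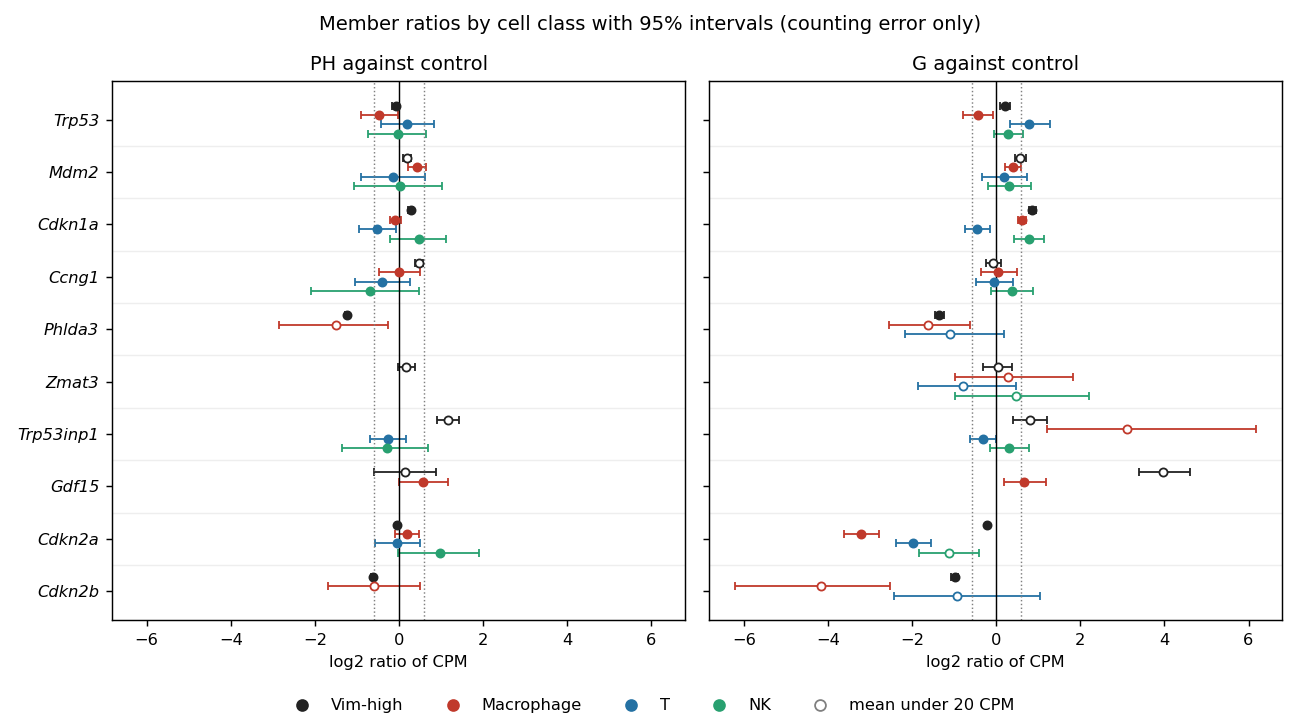
Log2 ratio of each gene in PH and G to control in Vim-high cells, macrophages, T cells and NK cells, with exact 95% intervals; open points have a mean under 20 CPM, dotted lines mark 1.5-fold, and genes with under 20 UMIs over both libraries or 0 in either are not drawn. In G, Cdkn1a lies above 0 in Vim-high cells, macrophages and NK cells (0.86, 0.61 and 0.77) and below 0 in T cells (-0.45).

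Set side by side for G against control, the log2 ratio of Cdkn1a was 0.61 in macrophages (0.51 to 0.72) and 0.86 in Vim-high cells (0.77 to 0.94). In these class sums it was thus not larger in macrophages than in tumour cells under these settings. Single clusters did not all keep this order. Over 6 Vim-high clusters the values ran from -0.32 to 1.05, with a mean of 0.57. Macrophage clusters 19 and 25 of Leiden resolution 2.0 were at 0.613 and 0.625. With no doublets removed the macrophage value was 1.72. Vim-high values under the alternatives tried were lower, from -0.32 to 1.05. That setting also changed the macrophage class. A macrophage cluster there had 123 CPM of Ptprc and 302 of Xist, against 331 and 758.5 in the main clustering. It held 468 cells of G and 272 of control, and the other macrophage cluster 1716 and 117. The part of doublets in the value of 1.72 was not tested. In NK cells the log2 ratio of Cdkn1a was 0.77 (0.42 to 1.14), an interval that overlaps that of Vim-high cells. Trp53 had a log2 ratio of 0.78 in T cells (0.33 to 1.27), -0.44 in macrophages (-0.79 to -0.07) and 0.21 in Vim-high cells (0.09 to 0.32). These differences between classes were not tested. Fibroblast-like cells were too few to read: Cdkn1a stood at 83.5 CPM in PH, 26.6 in GPH, 177 in G and 61.4 in control, from 54, 3, 53 and 217 UMIs. Their Cdkn2a, at 449, 44.3, 538 and 500 CPM, and Xist, at 546, 1853, 504 and 73.8 CPM, differ widely between libraries. Summed fibroblast markers were at 17416 CPM in PH, 21248 in GPH, 15084 in G and 3762 in control, so the label is least borne out in control. Of the genes measured there, 2 of 7 were higher and 2 lower in PH against control, beside 43.2% and 18.3% of 4558 genes, and 2 of 7 higher and 2 lower in G, beside 37.2% and 22.9% of 4246 genes. GPH against control gave 5 higher and 4 lower of 9, beside 53.3% and 29.2% of 4938 genes.

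Other p53 targets, a list of 30, gave no common direction. In Vim-high cells of G against control, 6 were measured, with 0 higher at the limit and 1 lower, and the median log2 ratio was -0.09. Fas, a death receptor gene, was at 24.4 CPM in G and 13.9 in control, a level under the mean limit, and Btg2, an antiproliferative gene that is also an immediate early gene, was at 27.9 and 42.0 CPM. GPH against control gave 3 higher and 2 lower of 8 (median 0.43, over all genes 0.18), with Fas at 45.3 and 13.9 CPM, the kinase gene Plk2 at 56.8 and 25.3, and the pore-forming death gene Bax at 74.0 and 122. PH against control gave 0 higher and 1 lower of 6 (median -0.35). In macrophages of G, 1 of 7 was higher and 3 were lower (median -0.30), among them Plk3 at 13.5 and 31.8 CPM. In T cells of G, 1 of 10 was higher, 2 were lower and 7 lay between (median -0.35), with Rps27l at 524 and 300 CPM and Plk3 at 19.6 and 42.7.

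Of the genes that sense damage, 0 of 6 measured were called in Vim-high cells of G against control (median log2 ratio 0.08). In T cells of G, 2 of 8 were higher, Clspn, a checkpoint adaptor, at 37.5 and 19.3 CPM and Rpa1, which coats single-stranded DNA, at 42.1 and 27.5. Of the kinases, cyclins and other inhibitors, Cdkn2d, the p19Ink4d gene, was at 20.5 CPM in G and 41.9 in control Vim-high cells, and Ccnd3, cyclin D3, at 30.7 and 50.8. In T cells Cdkn1b, the p27 gene, was at 77.7 CPM in G and 177 in control. Integrated stress response genes had a median of -0.01 in Vim-high cells of G, with 1 of 9 higher, Psat1. In GPH against control, 4 of 9 were higher and 1 was lower (median 0.18).

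Cell cycle and dissociation genes also differed between libraries. In Vim-high cells of G, 7 of 14 measured mitosis genes were higher and 0 lower (median 0.60), with Cenpe at 60.2 CPM in G and 27.4 in control, while 9 of 16 immediate early genes were lower and 1 was higher (median -0.63). In GPH against G, 10 of 10 mitosis genes were lower (median -1.13) and 14 of 16 immediate early genes were higher (median 1.16). T cells of G had 8 of 14 S-phase genes higher and 0 lower (median 0.63), and 13 of 17 immediate early genes lower and 0 higher (median -0.91), with Fos, another AP-1 subunit, at 38.9 CPM in G and 238 in control. Macrophages of G had 6 of 9 S-phase genes lower and 0 higher (median -1.22), and Cdk4 and Cdk6, the kinases that Ink4 proteins block, at 34.0 and 30.3 CPM in G, against 87.7 and 86.6 in control. The part of these groups in the Cdkn1a ratios was not tested.

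Over 19 sums of a class and a library with at least 100 cells, the genes whose log2(CPM + 1) was most like that of Cdkn1a were Picalm (Pearson r 0.96), Mdm2 (0.95), Mcl1 (0.95), Sdcbp (0.95) and Rnf149 (0.93). For Cdkn2a they included Nid1, Nr2f2, Sparc and Rbfox2, each at 0.97. Sums of 1 library share their depth and free RNA, and those of related classes share cell types, so these values describe the pattern only. Among the 10 genes, Cdkn2b followed Phlda3 (0.94) and Cdkn2a (0.94), and Phlda3 ran against Trp53inp1 (-0.75).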

How the data were processed

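Single-cell RNA libraries of 4 groups, with 1 library per group, were deposited as raw UMI counts per gene and barcode, a filtered matrix per the file headers, which name cellranger 7.0.1. The submitters' processing notes name Cell Ranger 6.1 and the mm10 build. Whether strand was used in counting is not given in the sources used here. Barcodes with at least 500 UMIs, 300 genes and at most 20% mitochondrial UMIs were kept. The automatic threshold of the doublet caller marked almost no cells, so the highest Scrublet scores were removed at 0.8% per 1000 cells. Cells were clustered in scanpy 1.11.5 (2000 variable genes less the 4 members among them, 30 principal components, 15 neighbours, Leiden resolution 1.0). Immune clusters had Ptprc at 50 CPM or more. Vim-high clusters had 2000 CPM of Vim, and Krt19-high clusters 1000 CPM of Krt19, both with Xist under 50 CPM. Vim-high clusters also needed a median depth of at least 1/3 of the medians of their libraries. Clusters below that depth, with 1891 cells of PH, 80 of GPH, 37 of G and 276 of control, were set apart as low-depth. Krt19-high clusters had no depth limit, and a cluster of 242 GPH and 18 G cells with a median of 1016 UMIs stayed in. Other classes needed 3 markers at 50 CPM and 2-fold, and differences of share or level from the study may come from these rebuilt names.

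UMIs were summed per class and library and divided by the summed total (CPM). Ratios carry exact binomial 95% intervals and shares Clopper-Pearson ones, both for counting error only, and a count of 0 is given with the limit that 3 counts allow. The interval code was tested on simulated data. A level needed 20 cells and a ratio 100 cells in both libraries, or is marked by its cell number. No p-value was computed. The 10 genes, the marker lists and the 8 pathway lists were chosen with earlier results of these data known. Of a list, at most the 2 highest and 2 lowest genes at 1.5-fold were named per comparison. Fas in G Vim-high cells falls under this rule with a mean under 20 CPM, since 1 library sufficed for naming. Intervals, calls and figures used scipy 1.17.1, pandas 2.3.3 and matplotlib 3.10.9. Of the genes most like Cdkn2a over the class sums, 1 is not reported here.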

Additional observations from a re-analysis of the deposited data

Results flagged for a closer look

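In several comparisons a gene lay above 0 in a class and below 0 in another, on the log2 scale. For Cdkn1a in G against control, Vim-high cells exceeded T cells by 1.31 (0.86 and -0.45), and macrophages exceeded T cells by 1.07 (0.61 and -0.45). For Cdkn1a in PH against control, Vim-high cells exceeded T cells by 0.8 (0.28 and -0.52). For Trp53 in G against control, T cells exceeded macrophages by 1.22 (0.78 and -0.44), and Vim-high cells exceeded macrophages by 0.64 (0.21 and -0.44). For GPH against G, Krt19-high cells exceeded Vim-high cells by 1.34 in Cdkn1a (1.23 and -0.11) and by 0.76 in Cdkn2a (0.34 and -0.41). Each class is 1 sum per library, and none of these differences was tested.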

How the results depend on the processing

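No paired analysis was possible because each group is 1 library. Of 96 gene ratios, 49 were at least 1.5-fold apart as reported. Of those, 39 kept their direction under every alternative tried and 22 also stayed at least 1.5-fold apart. Of 18 reversals, 15 were in classes with fewer than 100 cells in a library. The median log2 ratio of the measured genes in fibroblast-like cells of GPH against control became -0.36 with at most 10% mitochondrial UMIs, -0.10 with cells at equal weight, -0.078 with the median of all genes set to 0 and -0.025 with cells classed by their own markers. Trp53 there was -0.10 at equal weight and -0.078 with the median at 0. The fibroblast median of GPH against G was -4.26 at equal weight and 0.38 by own markers. Equal weight gave -0.22 for the macrophage median and for Cdkn1a in GPH against control. Setting the median of all genes to 0 moved the Krt19-high median of GPH against G to 0.013. By own markers, the fibroblast values were -0.40 for Trp53 in PH, and -0.084 for Ccng1 and 0.034 for Cdkn2b in GPH, all against control. By own markers, T cells of GPH had -0.95 for Ccng1 and 0.22 for Cdkn2a against control, and -1.23 for Ccng1 against G. Cdkn1a in Vim-high cells was -0.32 in cluster 4 for G, and -0.28 in cluster 0 and -0.073 in cluster 8 for GPH, all against control. The cause of these changes was not tested. Adding the low-depth clusters to Vim-high cells, leaving out clusters that met the fibroblast marker count, and taking macrophages and T cells 1 cluster at a time, were chosen after seeing the data. With clusters under 50 cells in a library left out, Ccng1 in macrophages of G against control was at 0.632 times control in cluster 19 and 1.93 times in cluster 25. Phlda3 in Vim-high cells stayed between -1.77 and -1.12 in G and between -1.46 and -0.68 in PH against control, Mdm2 in GPH between 0.65 and 1.49, and Cdkn1a in Krt19-high cells of GPH against G between 1.00 and 1.23.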
